A study of Mus musculus with 2 samples.

Results

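The 40 genes described here encode the heat shock and unfolded protein chaperones, with the factors that control them. They were chosen by name, found through the symbol and gene identifier of the transcript tables, and make up 40 of the 55536 genes with a symbol. They were kept apart by compartment, with 15 in the cytosol, 17 in the endoplasmic reticulum (ER), 3 in the mitochondrion, and 5 regulators, of which 2 are heat shock factors and 3 are sensors or factors of the unfolded protein response. Total RNA without ribosomal RNA was read from nuclei, a fraction the labels call nucleoplasmic, of macrophages grown from bone marrow of C57BL/6J mice. All cells belonged to 1 group: Lipid A at 100 ng/ml for 12 h, 12 h after washing it out, and Lipid A at 100 ng/ml again for 40 min. Lipid A is the part of bacterial lipopolysaccharide that activates Toll-like receptor 4. The group held 2 libraries, labelled biological replicates 1 and 2, which carry the same donor entry; sex and age were not collected, per the labels. The RNA input was 1 µg for library 1 and 500 ng for library 2, so input and replicate cannot be told apart. There were no unexposed cells, so the values describe restimulated macrophages and give no response to Lipid A, and no p-value could be computed.

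Chaperones bind unfolded protein and let it fold instead of clumping. In the cytosol, Hsp70 proteins hold and release clients in cycles of ATP use, helped by J-domain proteins that load them and by exchange factors that empty them, and Hsp90 finishes many signalling proteins. When unfolded protein accumulates, the factor Hsf1 binds heat shock elements, inverted repeats of GAA, and raises their transcription. The ER has its own Hsp70, Hsp90, lectin and disulfide chaperones, controlled by the unfolded protein response, in which Ern1, also called IRE1, splices the mRNA of the factor Xbp1, and Atf6 is cut free from the membrane. The ER stress element in many of their promoters is CCAAT and CCACG with 9 bases between them. Macrophages secrete much protein, and Toll-like receptors themselves are folded by the ER Hsp90, encoded by Hsp90b1.

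Named genes took 19797829 expected counts in library 1 and 17213606 in library 2. The 40 genes took 85158 of these counts in library 1, or 0.430% (95% Wilson interval 0.427% to 0.433%), and 79178 in library 2, or 0.460% (0.457% to 0.463%); the intervals cover counting error only. RNA of the mitochondrial genome took 2.63% of counts in library 1 and 6.60% in library 2. All 9 macrophage markers were detected and 8 of them were in the highest 10% of the protein-coding genes detected, led by Lyz2 at 1420.91 TPM in library 1 and 1201.04 in library 2. Of the markers of T cells only Cd4 was detected (19.84 TPM in library 1 and 23.01 in library 2, with Cd3e at 0 counts in both libraries), and no marker of B cells, natural killer cells, neutrophils, red cells, fibroblasts or endothelium was. Of 4 dendritic cell markers, 2 were detected, none above 0.37 TPM. In a bulk sample, fewer cells of a type and less RNA per cell cannot be told apart.

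All 40 genes were detected, meaning at 10 or more counts in both libraries, against 50% of all protein-coding genes. The rarest was Hspb1, with 15 counts in library 1 and 12 in library 2, and the other 39 had at least 50 counts in both libraries. Their levels, in TPM, a share of all transcripts that is scaled by length, ran from 0.88 to 213.7 as means over the libraries. The median of the 40 was 21.2 TPM, against 6.38 TPM for detected protein-coding genes. Of the 40, 11 lay in the top 10% of those genes, which begins at 42.6 TPM. They were 6 ER genes, 4 cytosolic genes and 1 mitochondrial gene.

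**Figure D1:**
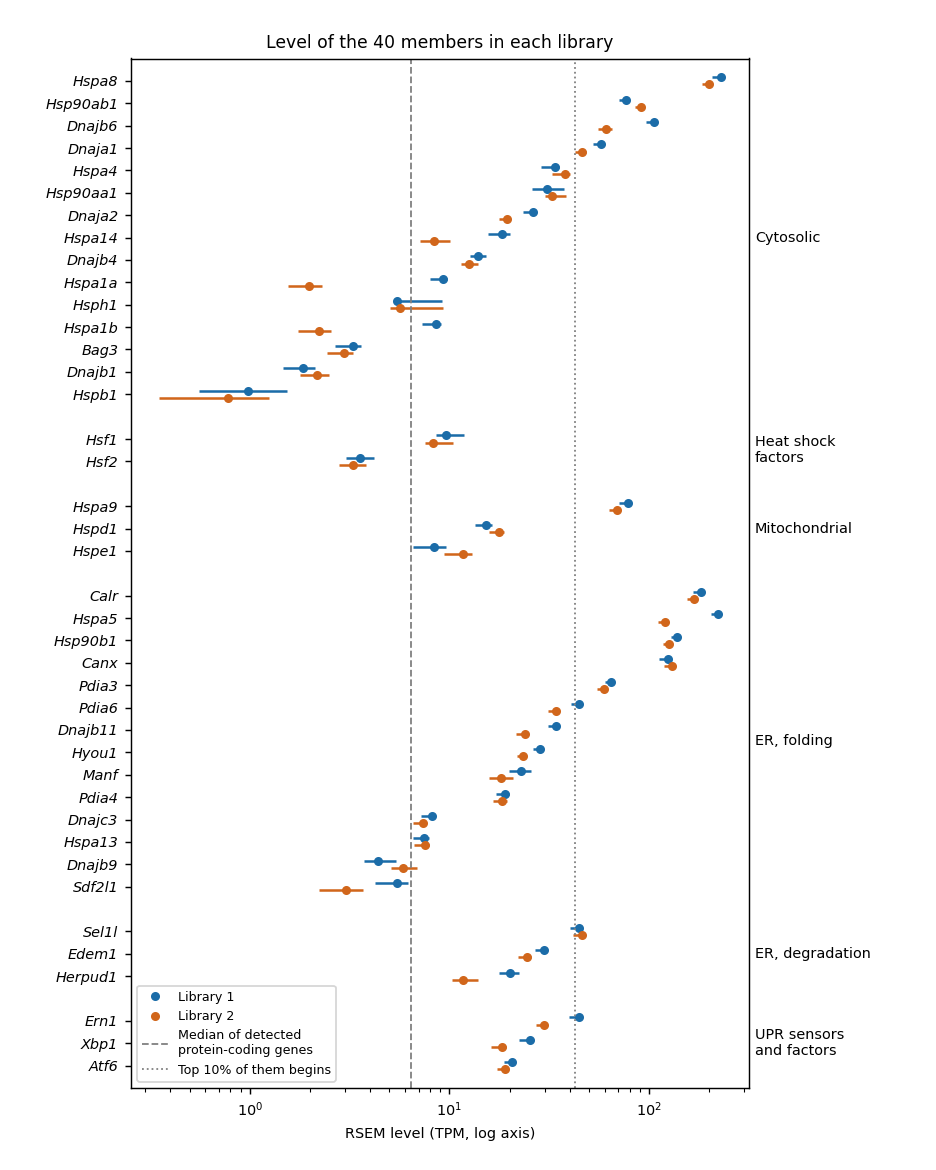
Level of each of the 40 genes in TPM on a log axis, with library 1 drawn above library 2 on each row; horizontal bars are the deposited credibility intervals, and vertical lines mark the median (6.38 TPM) and the start of the top 10% (42.6 TPM) of detected protein-coding genes. The highest genes by RSEM are Hspa8, Calr, Hspa5, Hsp90b1 and Canx, while Hspb1, Dnajb1 and Bag3 are the lowest, and Hspa1a and Hspa1b lie right of the median in library 1 and left of it in library 2.

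The cytosolic chaperones spanned the whole range and were led by the forms that cells use at all times. Hspa8, which encodes the constitutive Hsp70, had 228.36 TPM in library 1 and 199.01 in library 2, the highest RSEM mean of the 40 genes. With kallisto, Dnajb6 (85.06 TPM) stood above Hspa8 (84.47 TPM), and part of that Dnajb6 level lay in short transcripts, as given below. Hsp90ab1, the constitutive Hsp90, stood at 76.40 TPM in library 1 and 91.29 in library 2, against 30.85 and 32.60 TPM for Hsp90aa1, the Hsp90 that heat induces. The inducible Hsp70 genes were far lower. Hspa1a had 9.31 TPM in library 1 against 1.98 in library 2, and Hspa1b had 8.60 TPM against 2.23. These 2 genes have no intron and lie 9951 bases apart on the minus strand of chromosome 17 (Hspa1a at 34969190 to 34972156 and Hspa1b at 34956436 to 34959238, mm10).

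Their promoters are shown because these were the only members over 2-fold apart between the libraries, as given below. The 250 bases before the 2 starts differ at 3 positions, and each holds 1 heat shock element of the form GAANNTTC whose first base lies 104 bases before the start. The promoter of Dnajb6 is shown with them as that of the highest cytosolic gene with such an element among the 12 that have a promoter window in the RefSeq table; Hspa8 and Hsp90ab1, which stand higher, have none. The sequences are from RefSeq, build GRCm38.p6, 5′ to 3′ on the strand of the gene, all before the RefSeq start, with the bases of heat shock elements in capitals. They cover chr17:34972229-34972284 (minus strand) for Hspa1a, chr17:34959311-34959366 (minus strand) for Hspa1b and chr5:29735828-29735888 (plus strand) for Dnajb6. In the annotation used for the levels, Dnajb6 begins at 29735688, so its stretch lies inside the gene there.
Hspa1a: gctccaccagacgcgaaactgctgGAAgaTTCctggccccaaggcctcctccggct
Hspa1b: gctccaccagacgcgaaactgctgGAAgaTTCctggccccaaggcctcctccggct
Dnajb6: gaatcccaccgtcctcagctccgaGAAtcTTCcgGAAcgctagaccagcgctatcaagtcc
The printed stretches of Hspa1a and Hspa1b are identical, whereas the Dnajb6 stretch carries a longer element, in which GAANNTTC runs on into TTCNNGAA.

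The J-domain proteins, which bring clients to Hsp70, differed widely in level. Dnajb6, which also keeps aggregating proteins apart, stood at 106.07 TPM in library 1 and 60.54 in library 2, and Dnaja1 at 57.62 and 46.20 TPM. Dnaja2 stood at 26.17 TPM in library 1 and 19.50 in library 2, and Dnajb4 at 13.92 and 12.51 TPM. Dnajb1, the J-domain partner of inducible Hsp70, was at the low end with 1.85 TPM in library 1 and 2.18 in library 2. The exchange factors of the Hsp110 type differed as well, with Hspa4 at 33.67 TPM in library 1 and 37.93 in library 2, and Hsph1 at 5.45 and 5.63 TPM. Hspa14, an Hsp70 found at ribosomes, stood at 18.23 TPM in library 1 and 8.40 in library 2. Bag3, which links Hsp70 to autophagy, stood at 3.29 TPM in library 1 and 2.98 in library 2, and the small heat shock gene Hspb1, whose product holds unfolded protein without ATP, at 0.98 and 0.78 TPM. The 6 lowest cytosolic genes by mean level, Hspb1, Dnajb1, Bag3, Hspa1b, Hsph1 and Hspa1a, are all known heat shock genes. Of the heat shock factors, Hsf1 stood at 9.61 TPM in library 1 and 8.26 in library 2, and Hsf2 at 3.55 and 3.29 TPM, and for both the deposited credibility intervals of the libraries overlapped.

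The mitochondrial chaperones came from nuclear genes at unequal levels. Hspa9, the mitochondrial Hsp70 that pulls proteins in, stood at 78.02 TPM in library 1 and 69.26 in library 2. Hspd1 and Hspe1, the ring and the lid of the mitochondrial chaperonin, stood at 15.32 TPM in library 1 and 17.76 in library 2, and at 8.40 and 11.64 TPM. These genes lie head to head on chromosome 1, Hspd1 on the minus strand and Hspe1 on the plus strand, and their annotated ends overlap by 112 bases. Reads from the overlap cannot be told apart without strand, and whether the strand was used in counting is not given in the labels or headers.

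ER chaperones included most of the highest genes. Calr and Canx, the lectin chaperones that hold newly glycosylated proteins, stood at 182.07 TPM in library 1 and 168.72 in library 2, and at 123.80 and 129.94 TPM. Hspa5, the ER Hsp70 also known as BiP, had 222.34 TPM in library 1 against 120.83 in library 2, a wider gap than those of Hspa8, Calr, Hsp90b1 and Canx. Hsp90b1 stood at 138.36 TPM in library 1 and 125.21 in library 2. These 4 genes and Hspa8 were the 5 highest of the 40 by RSEM; with kallisto Hsp90b1, at 55.84 TPM, came after Dnajb6 and these others. Pdia3, the disulfide isomerase that works with Calr and Canx, followed at 64.69 TPM in library 1 and 59.13 in library 2.

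The promoters of Calr and Hspa5 are shown as those of the 2 highest ER genes, both of which hold an ER stress element. The sequences are from RefSeq, build GRCm38.p6, 5′ to 3′ on the strand of the gene, with the bases of the element in capitals, at chr8:84847051-84847117 (minus strand) for Calr and chr2:34772001-34772067 (plus strand) for Hspa5.
Calr: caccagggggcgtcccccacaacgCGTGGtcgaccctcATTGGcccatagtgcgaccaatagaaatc
Hspa5: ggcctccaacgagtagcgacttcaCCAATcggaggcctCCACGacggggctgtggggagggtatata
The element reads forward in Hspa5, 65 bases before the RefSeq start, and on the opposite strand in Calr, where it begins 162 bases before the RefSeq start. In the annotation used for the levels, Hspa5 begins at 34771970, so its stretch lies inside the gene there.

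The remaining ER folding genes stood lower. The disulfide isomerase genes Pdia6 and Pdia4 stood at 44.45 TPM in library 1 and 34.23 in library 2, and at 19.05 and 18.39 TPM. The J-domain partners of Hspa5 formed a series, with Dnajb11 at 34.29 TPM in library 1 and 23.97 in library 2, Dnajc3 at 8.15 and 7.38 TPM and Dnajb9 at 4.41 and 5.86 TPM. Hyou1, the exchange factor of Hspa5, stood at 28.52 TPM in library 1 and 23.42 in library 2, and Manf, a small secreted protein that binds Hspa5, at 22.95 and 18.22 TPM. Hspa13, a short Hsp70 of the ER, stood at 7.47 TPM in library 1 and 7.52 in library 2, and Sdf2l1, a partner of Dnajb11, at 5.47 and 3.04 TPM. Genes of ER degradation, which sends misfolded protein back to the cytosol, had a median of 27.05 TPM, near the 27.55 TPM of all 14 ER folding genes. Sel1l, the adaptor of the ubiquitin ligase complex, was at 44.60 TPM in library 1 and 46.08 in library 2, Edem1, which marks glycoproteins for removal, at 29.67 and 24.43 TPM, and Herpud1, a scaffold of the complex, at 20.13 and 11.65 TPM.

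The sensors and factors of the unfolded protein response all lay between the median and the top 10% by mean level. Ern1 stood at 44.33 TPM in library 1 and 29.90 in library 2, Xbp1 at 25.35 and 18.35 TPM and Atf6 at 20.63 and 18.93 TPM. The mean of Ern1 was 37.1 ± 10.2 TPM (SD, n = 2), above that of Xbp1 (21.9 ± 4.95 TPM) in both libraries, while Xbp1 and Atf6 (19.8 ± 1.20 TPM) differed by less than 1 SD of Xbp1. The annotation holds 4 Xbp1 transcripts, whose shortest intron is 300 bases. The short intron that Ern1 cuts out is therefore not among its isoforms, and spliced and unspliced Xbp1 mRNA are counted as 1.

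By compartment, the ER genes had the highest median level. It was 27.0 TPM, at percentile 83.5 ± 0.631 among protein-coding genes detected (SD of the 2 libraries taken alone). The regulators lay at percentile 77.8 ± 2.11, the mitochondrial genes at 73.6 ± 6.17 and the cytosolic genes at 68.6 ± 1.80, with medians of 19.8, 16.5 and 13.3 TPM. These percentiles come from the mean TPM of both libraries and are not means of the single-library percentiles. For the cytosolic genes the latter were 73.1 in library 1 and 70.5 in library 2, both above 68.6. The ER median exceeded the cytosolic median by 0.97 ± 0.15 on the log2(TPM + 1) scale, and by 0.67 and 0.89 in libraries 1 and 2 taken alone. The cytosolic list holds both the highest gene by RSEM, Hspa8, and the 3 lowest, Hspb1, Dnajb1 and Bag3, so its median says little about any single member.

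Between the libraries, Hspa1a and Hspa1b stood apart from the other 38 genes. Ratios are log2((TPM + 1) in library 1 / (TPM + 1) in library 2), centred on the median ratio of the protein-coding genes detected, which removes a shift of 0.27 and understates differences of low genes. Hspa1a had 551.06 counts in library 1 and 123.25 in library 2, a ratio of 1.52, and Hspa1b had 478.64 and 130.35 counts, a ratio of 1.30. Among genes with a mean count of at least 100, 1.47% were over 2-fold higher in library 1 and 0.761% over 2-fold lower. Of the 38 members at that count, these 2 were over 2-fold higher and 0 over 2-fold lower. Their ratios lay at percentiles 99.7 and 99.5 of the 8936 genes. The 2 genes share much of their sequence, as given below, so they are closer to 1 observation than to 2, and summed they stood at 17.91 TPM in library 1 and 4.21 in library 2. With kallisto in place of RSEM the ratios were 1.16 and 0.94, so that Hspa1b no longer passed 2-fold.

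Other genes known to respond to heat shock had ratios below 0, namely -0.31 for Hsph1, -0.43 for Dnajb1, -0.17 for Bag3, -0.12 for Hspb1, -0.35 for Hsp90aa1, -0.48 for Hspd1 and -0.70 for Hspe1. Only Dnajb6 (0.52) and Dnaja1 (0.04), among genes with a heat shock element in the promoter window, stood on the same side as the Hspa1 pair. Signs near 0 were not firm: Dnaja1 turned to -0.24 and Hspb1 to 0.42 with kallisto, and without centring Bag3, Hspb1 and Dnajb4 stood at 0.11, 0.15 and 0.14. RNA of the mitochondrial genome differed in the other direction, with 12 of its 13 mRNAs detected, 10 of them lower in library 1 and their sum at 30720 TPM in library 1 against 80150 in library 2. Its part in these ratios, and that of RNA input, was not tested.

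Beyond that pair, the largest ratios were 0.76 for Hspa14, 0.60 for Hspa5, 0.52 for Dnajb6, 0.47 for Herpud1 and 0.40 for Sdf2l1 on the higher side, and -0.70 for Hspe1, -0.62 for Dnajb9 and -0.53 for Hsp90ab1 on the lower side. The middle 95% of the 8936 genes ran from -0.71 to 0.87, so each of these lay inside it. Sdf2l1, at a mean count of 83.5, is not itself among the 8936 genes. The Hspa5 ratio was 0.06 with kallisto, and without centring Hspa14 passed 2-fold at 1.03. Of the 40 ratios, 14 were above 0 and 26 below, with medians of -0.12 for cytosolic, -0.13 for ER, -0.48 for mitochondrial and -0.08 for regulator genes, beside 0 for all detected protein-coding genes by construction. Without centring, the cytosolic and ER medians turned to 0.15 and 0.14, and only 25 of the 40 ratios kept their sign. The deposited credibility intervals of the libraries, which are on TPM without centring, overlapped for 20 genes. The share over all genes is not given here, so this count says nothing particular to the members.

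**Figure D2:**
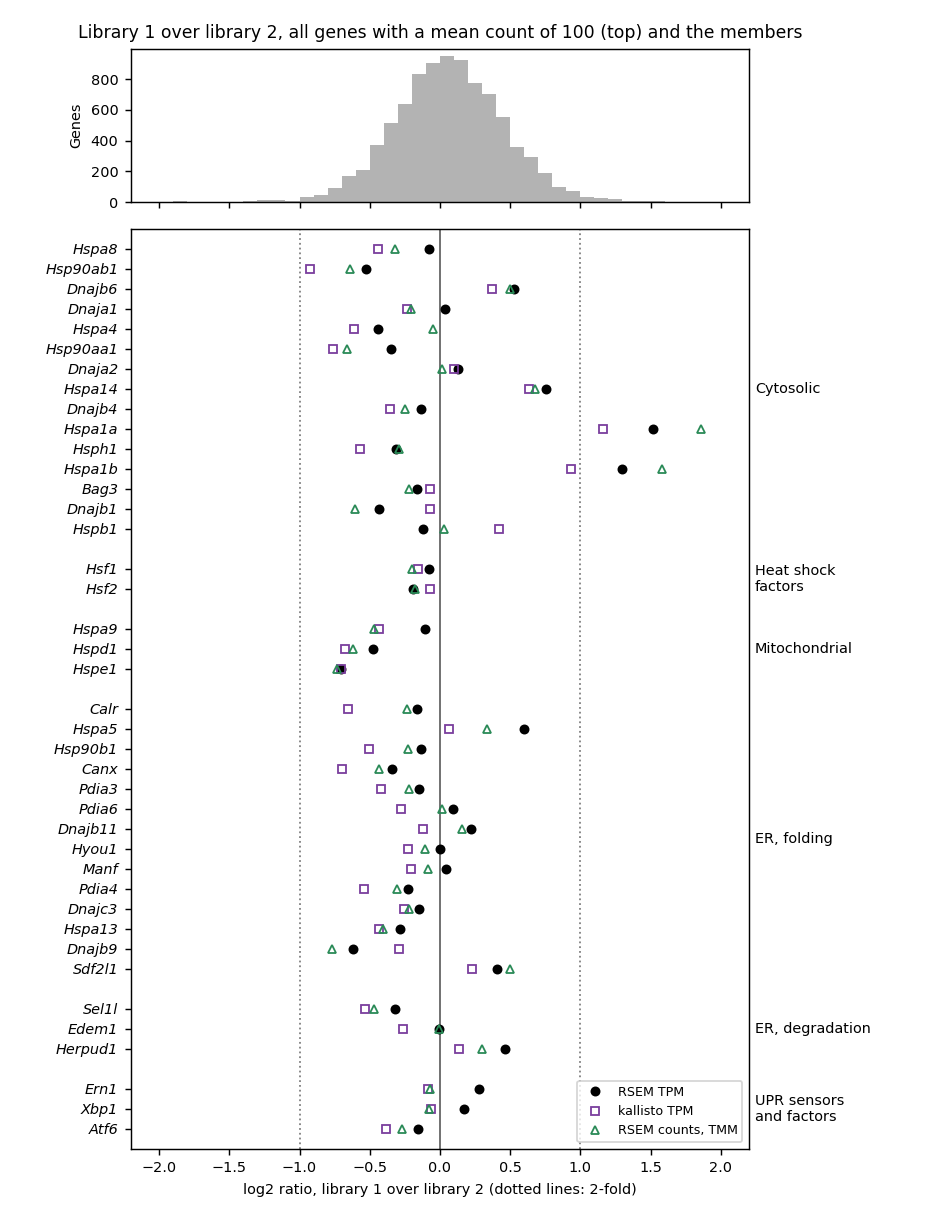
Ratio of library 1 over library 2 on a log2 scale: the upper panel counts the 8936 genes with a mean count of at least 100 in steps of 0.1, and the lower panel gives each member by RSEM TPM (filled circles), kallisto TPM (squares) and RSEM counts scaled by TMM (triangles), with dotted lines at 2-fold. Hspa1a (1.52 by RSEM TPM) and Hspa1b (1.30) lie right of the 2-fold line by RSEM, and Hspb1, whose ratios spread across 0, and Sdf2l1 have mean counts under 100.

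Nuclear RNA can hold transcripts that are not fully spliced, and 26 of the 40 genes have an annotated retained-intron transcript and 100 counts in both libraries. In 10 of these, at least 20% of the gene's TPM lay in such transcripts in both libraries, against 49.7% of all genes of that kind. The share of the 26 was thus not above the background, and their medians were 21.4% and 18.2% in libraries 1 and 2, against 25.0% and 22.1% for all genes. The 10 were Hsf1, Hsf2, Hspa4, Hspa14, Hsph1, Hspa9, Calr, Manf, Herpud1 and Sel1l, and each also passed with kallisto.

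Within the list the shares were very unequal. Hspa14 had 55.1% of its TPM in retained-intron transcripts in library 1 and 49.6% in library 2, and Herpud1 had 43.2% and 32.6%. Hspa4 had 35.6% and 60.0%, so that a retained-intron transcript, Hspa4-202, led this gene in library 2. In libraries 1 and 2, Calr had 36.1% and 36.6%, Hsf1 had 34.3% and 35.1%, and Hsph1 had 34.3% and 35.5%. At the other end by RSEM, Hsp90b1 had 3.38% in library 1 and 1.81% in library 2, and Pdia3 had 0.557% and 1.12%, although both stand among the highest ER genes. Hspa5 had 4.92% in library 1 and 5.69% in library 2, with a further 20.1% and 9.20% in Hspa5-204, a short transcript annotated for nonsense-mediated decay. Dnaja2 had 3.78% in library 1 and 0% in library 2. These low shares depended on the program: with kallisto Dnaja2 had 39.3% in library 1 and 18.8% in library 2, Hspa5 had 12% in library 1 and 15.2% in library 2 and Hsp90b1 had 11.9% in library 1 and 5.86% in library 2, while Pdia3 had 1.68% in library 1 and 2.16% in library 2. Hspa5-204 had 44.75 TPM in library 1 against 11.12 in library 2, while the leading coding transcript, Hspa5-202, stood at 149.04 and 87.23 TPM. In counts, Hspa5-204 (477 bases) took 262.06 in library 1 and 64.55 in library 2, against 7691.33 and 4718.67 for Hspa5-202.

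**Figure D3:**
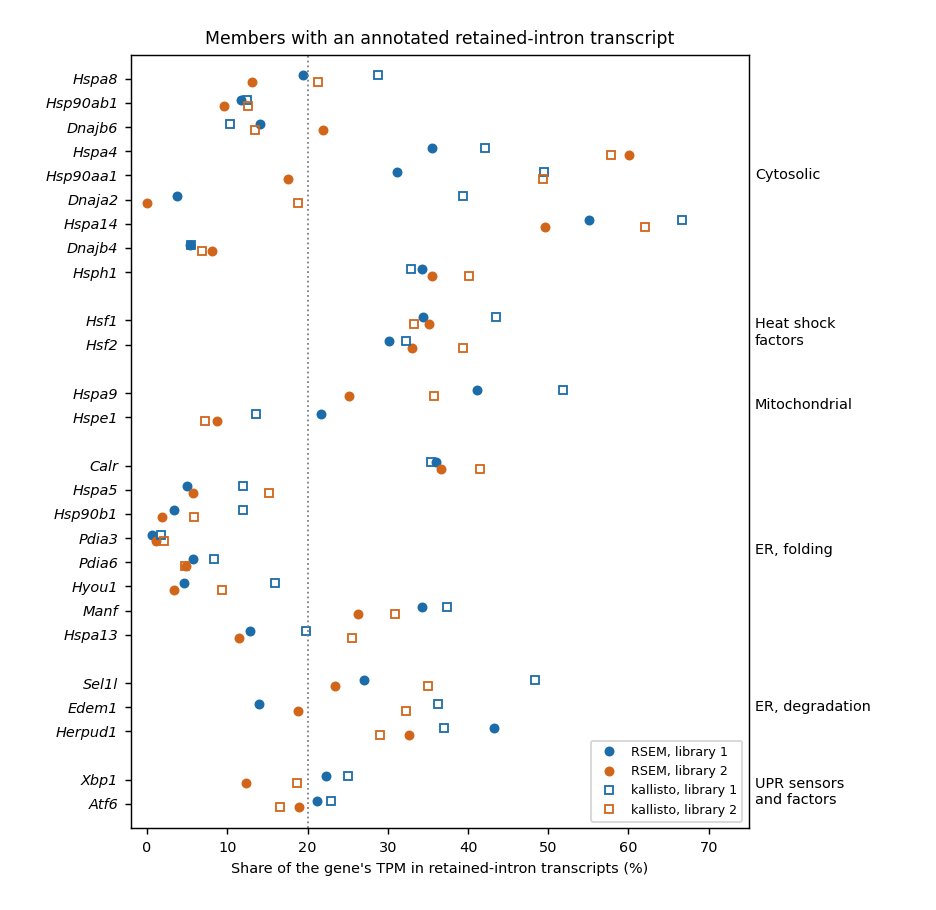
Share of each gene's TPM in transcripts annotated as retained introns, for the 26 members tested, by RSEM (filled circles) and kallisto (open squares), with library 1 above library 2 on each row and a dotted line at the 20% threshold. Hspa14 lies highest in library 1 (55.1% by RSEM), and Pdia3 lies lowest in both libraries by kallisto (1.68% in library 1 and 2.16% in library 2).

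The leading transcript was the same in both libraries and by both programs for 34 genes, among them 29 of the 35 with several transcripts. The share over all genes is not given here, so these counts say nothing particular to the members. Dnaja1 was led by a transcript annotated as non-coding, Dnaja1-204, with 32.8% in library 1 and 35.1% in library 2 of the gene's TPM, and its protein-coding transcripts held 27.5% and 35.2%. Its gene also overlaps Smu1 on the opposite strand by 608 bases. Canx had 29.8% in library 1 and 30.1% in library 2 of its TPM in the short non-coding Canx-202. This transcript of 708 bases took 397.82 counts in library 1 and 430.72 in library 2, against 6156.22 and 6621.89 for Canx-201. Such transcripts lie within the same locus, so gene levels in this fraction are not levels of coding mRNA alone.

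How far a level can be trusted depends on the copies a gene has. The text of each gene's annotated transcripts was cut into words of 31 bases and compared with all other genes. For Hspa1b, 68.0% of words occurred elsewhere and for Hspa1a 65.4%, almost all in each other. The share was 52.3% for Hspb1, 51.4% for Hsp90aa1, 50.1% for Hspd1 and 43.5% for Hspa8, mainly in pseudogenes, and it was under 25% for every other member. For ER genes it was 10.8% for Dnajb9 and at most 4.09% for the others. Of 14 pseudogenes named after members, 9 had 0 counts in both libraries and 2 had at least 10 counts in either, Hspd1-ps3 with 4.44 counts in library 1 and 12.23 in library 2, and Hspe1-ps5 with 12.0 and 6.00. Choice by name left out the single genes sharing most words with Hspb1 (52.3%), Hsp90aa1 (46.7%) and Hspa8 (38.6%), whose counts are not given here. Hspa14 also overlaps Gm45902, on the same strand, which held 502.03 counts in library 1 and 184.33 in library 2. Of the Hspa14 words, 7.30% occurred in Gm45902, so part of the Hspa14 level and ratio rests on how reads were shared between these genes.

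Levels by RSEM and by kallisto were set side by side for each gene. After centring, 0.138% of genes were over 2-fold higher with RSEM and 4.37% over 2-fold lower. Of 38 members at a mean count of 100, 0 were higher by that much and 1 was lower, a count near the background share. It was Dnajb6, at -1.07 on the log2 scale. With kallisto, Dnajb6-204 (123 bases) had 17.62 TPM in library 1 and 15.99 in library 2, and 0 in both with RSEM. Dnajb6-211 (218 bases) had 15.43 and 17.07 TPM with kallisto, and 1.27 and 0 with RSEM. Of the Dnajb6 words, 19.0% are shared with other genes. The cause of the gap was not tested. Hspa1a was the farthest to the other side at 0.85.

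Promoter windows of 250 bases before to 50 after the start were at hand for 31 of the 40 genes, in 38 windows. The 9 without one were Hsf1, Hspa8, Hsp90aa1, Hsp90ab1, Hspa9, Atf6, Hspa13, Hyou1 and Manf. A heat shock element (GAANNTTC or TTCNNGAA, which are their own reverse complements and can overlap) occurred in 10 of the 31 genes, or 12 of 38 windows, against 15.1% of 32851 promoters of all genes. All 10 encode cytosolic or mitochondrial chaperones, 8 of 12 with a window in the cytosol and 2 of 2 in the mitochondrion, and 0 of 14 ER genes had one. The 10 are not all separate cases, as the Hspa1a and Hspa1b promoters differ at only 3 of the 250 bases before the start. Hspd1 and Hspe1 lie head to head and their matches have the same arrangement. Whether these are the same stretch read from both strands was not tested. The ER stress element, on either strand, occurred in 6 of the 31 genes, or 6 of 38 windows, against 0.119% of all promoters. All 6, Hspa5, Hsp90b1, Calr, Canx, Pdia6 and Dnajc3, are ER folding genes, of 14 ER genes with a window. The element was already known from promoters of ER chaperone genes, as given above, so these matches are a description and not a test. CCAAT alone, which the ER stress element contains, occurred in 22 of the 31 genes, or 24 of 38 windows, against 37.4% of all promoters. TGACGTGG, the unfolded protein response element, occurred in 0, against 0.676%. A match is a description of the letters and not a site, and no match says nothing about a factor.

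**Figure D4:**
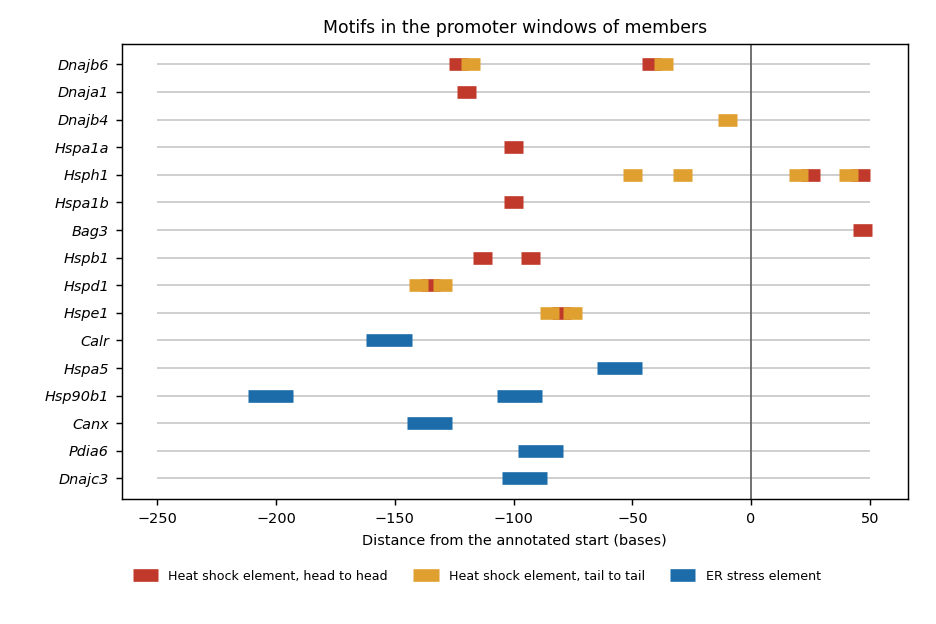
Position of heat shock elements and ER stress elements in the promoter windows (250 bases before to 50 after the start) of the 16 members that hold either, with distance from the annotated start in bases. Hspa1a and Hspa1b have the element at the same distance, Hsp90b1 has 2 ER stress elements, and some marks of Dnajb6 and Hsph1 are the same sites seen from different annotated starts.

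Lists of genes that work beside the 40 had medians of 3.75 to 14.1 TPM and held no gene over 2-fold apart between the libraries at a mean count of 100. Each list had only 8 to 20 genes at that count. Over all genes, 1.47% were over 2-fold higher in library 1 and 0.761% over 2-fold lower, so this absence does not set the lists apart. Of 22 cytosolic co-chaperones 19 were detected, with a median of 10.4 TPM, from Dnajc7, a J-domain protein that binds both Hsp70 and Hsp90, at 78.35 TPM in library 1 and 49.30 in library 2, down to the Hsp70 gene Hspa2 at 0.62 and 0.46 TPM. All 14 genes of the cytosolic chaperonin and of prefoldin, which fold actin and tubulin, were detected at a median of 11.9 TPM, from Tcp1 at 23.75 TPM in library 1 and 22.39 in library 2, to Pfdn4 at 2.16 and 1.02 TPM. Folding helpers and proteases of the mitochondrion had the lowest median, 3.75 TPM over 11 genes, with the protease gene Yme1l1 at 31.40 TPM in library 1 and 25.34 in library 2, and Grpel1, the exchange factor of Hspa9, at 1.23 and 1.20 TPM. Other ER folding genes had a median of 12.2 TPM over 22 measured genes, all detected, led by the disulfide isomerase gene P4hb at 49.84 TPM in library 1 and 43.41 in library 2, with Pdia5 lowest at 0.58 and 0.53 TPM. ER-associated degradation had a median of 14.1 TPM with 14 of 15 detected, led by Vcp, the ATPase that extracts clients, at 66.97 TPM in library 1 and 56.88 in library 2, with the ubiquitin ligase gene Rnf5 lowest of the detected at 4.23 and 4.42 TPM. Of 14 further genes of the unfolded protein response 13 were detected, at a median of 11.6 TPM. Their highest was Ppp1r15a, whose product restarts translation by aiding removal of phosphate from eIF2α, at 215.98 TPM in library 1 and 198.51 in library 2, a level near that of Hspa8, and their lowest detected was Wfs1 at 1.78 and 1.03 TPM.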

How the data were processed

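The authors deposited, for each of 2 libraries, RSEM tables of genes and transcripts and a kallisto table of transcripts, named here by their column layouts. Per the file headers these hold expected counts, TPM, and the bounds of a TPM credibility interval, used here as a score of precision; the authors did not state its level. The percent of a gene's TPM in each transcript was likewise among the authors' values; here it was computed again from TPM. The submitters' processing notes name mm10 and GENCODE M21; the aligner and the versions of programs are not given there. Features without a gene name took 0.653% and 0.222% of counts and were left out.

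The 40 genes, the lists and the motifs were chosen with earlier results of these data known. Named genes are the 40, the highest and lowest detected gene of each further list, the highest marker of each cell type named and pseudogenes with at least 10 counts. Both heat shock 70 promoters were added after their values were seen. Cd3e was named as a defining marker, and Smu1 and Gm45902 as overlapping genes, chosen after their values were seen. A gene at 0 counts may hold up to 3 counts, or 0.152 CPM in library 1 and 0.174 CPM in library 2. With 1 group and 1 library on each side of the input difference there was no test. Ratios used a pseudocount of 1, calls needed a mean count of 100, and TMM factors came from rounded expected counts in edgeR 4.0.16 (R 4.3.3). The ratio step was tested on simulated data. Python 3.11.15 with pandas 2.3.3 and numpy 2.4.6 was used. Alternatives were the other program, single libraries, scale, centring, pseudocount and thresholds.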

Additional observations from a re-analysis of the deposited data

How the results depend on the processing

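All 40 genes stayed detected under every setting tried except the minimum of 50 counts, which left 39. The list percentiles depended on the setting. With kallisto they were 65.8 for cytosolic, 80.1 for ER and 71.7 for regulator genes. With a minimum of 50 counts they were 61.4, 79.7 and 72.7, and with a minimum of 1 count they were 73.5, 86.1 and 81.3, because fewer or more genes were ranked. Single libraries gave the cytosolic genes 70.5 to 73.1. The ER median stayed above the cytosolic median in every setting, by 0.77 with kallisto and by 0.67 to 0.89 in single libraries. The cytosolic and ER ratio medians were 0.15 and 0.14 without centring, and the ER median was -0.28 with kallisto; a median was read as moved at over 0.1. Members over 2-fold apart numbered 1 with kallisto and 6 at 1.5-fold. Retained-intron calls numbered 17 at a share of 10%. Without centring 27 members differed over 2-fold between the programs, whose scales differ. Shares of all genes at these settings are not given here, so these counts show how the calls move and nothing particular to the members. Leaving out a library was not possible for the ratios, which have 1 library on each side, and no paired analysis was possible because there was 1 group. Levels moved by more than 1 SD for 36 genes with kallisto and for all 40 with TPM rescaled over protein-coding genes, which changes the scale of every gene.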

Other observations

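Among the 14 ER genes with a promoter window, the 6 with an ER stress element had a median level of 129 TPM (7.77 to 175 TPM), against 22.9 TPM (4.25 to 61.9 TPM) for the 8 without. Among the 12 cytosolic genes with a window the order was the other way, with a median of 5.59 TPM (0.88 to 83.3 TPM) for the 8 with a heat shock element and 18.1 TPM (2.02 to 35.8 TPM) for the 4 without. By mean level, the median with the heat shock element lies between Hsph1 and Hspa1a, and Hspa1a and Hspa1b differ between the libraries. In library 1 alone this median was 8.96 TPM, between Hspa1b and Hspa1a, against 22.2 TPM without the element. In library 2 alone it was 4.30 TPM, between Bag3 and Hsph1, against 13.9 TPM without. The ranges overlap in both cases. This comparison was chosen after the values were seen, the genes without a window are left out, and no test was made.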
